A study of Mus musculus with 6 samples.

Results

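Integrated stress response regulators were examined in the hippocampus of mice that express a short form of ATF6. The set holds 10 genes, namely Atf4, Ddit3, Trib3, Chac1, Atf3, Atf5, Ppp1r15a, Sesn2, Cebpb and Nupr1, taken by gene name. All 10 had 1 row each in the authors' deposited table of 17385 genes. The tested mice, labelled sATF6-KI, were C57BL/6 animals aged 2 months with the genotype Rosa26-sATF6-MER;Emx1-Cre (3 samples). The control mice had the same strain and age and carried EMX1-Cre without the Rosa26 allele (3 samples), so Cre was present in both groups. Emx1 drives Cre in the dorsal forebrain, and the series title calls the expression neuron-specific. MER is a modified hormone-binding part of the estrogen receptor, and whether a ligand was given is not stated in the sources used here. Messenger RNA of whole hippocampus was sequenced, so fewer cells of a type and less RNA per cell cannot be told apart. The labels do not say whether the 3 samples of a group are separate animals. Values per library were not analysed here, so the spread between samples enters only through the error of the authors' own test.

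The integrated stress response begins when a kinase phosphorylates the translation factor eIF2α. Protein synthesis then slows in general while translation of ATF4 increases, and ATF4 raises genes of amino acid supply and further regulators such as CHOP, the product of Ddit3. Under stress in the endoplasmic reticulum (ER) the kinase is PERK, which works beside the sensors IRE1 and ATF6. ATF6 is a transcription factor released from its membrane anchor under ER stress, and it is known to bind the ER stress response element (ERSE) together with the factor NF-Y. Because ATF4 is controlled largely at translation, its messenger RNA level is a partial readout of the pathway.

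The promoters of the 3 regulators that were higher in sATF6-KI hippocampus are shown because they are the regulatory sequence next to the measured change. Each line gives bases -250 to -1 from the RefSeq start (GRCm38.p6), 5′ to 3′ on the strand of the gene. Capitals mark exact matches on either strand. They are the NF-Y box CCAAT (Ddit3 and Atf4), the ATF6 box CCACG (Atf4) and the cyclic AMP response element core TGACG (Trib3 and Atf4). Such short matches are common. In windows that also run past the start, CCAAT matched in 41.1% of all genes, CCACG in 35.5% and TGACG in 23.0%. Of the 10 regulators, 6, 7 and 6 matched. Chac1, which did not pass the test, matched each of them. The marked letters thus do not set the 3 higher regulators apart.
Ddit3, chr10:127290543-127290792, plus strand: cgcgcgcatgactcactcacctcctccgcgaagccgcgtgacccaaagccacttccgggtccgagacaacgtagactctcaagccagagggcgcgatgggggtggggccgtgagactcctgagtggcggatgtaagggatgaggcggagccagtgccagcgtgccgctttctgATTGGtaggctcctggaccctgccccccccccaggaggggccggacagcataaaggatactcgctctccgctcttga
Trib3, chr2:152344061-152344310, minus strand: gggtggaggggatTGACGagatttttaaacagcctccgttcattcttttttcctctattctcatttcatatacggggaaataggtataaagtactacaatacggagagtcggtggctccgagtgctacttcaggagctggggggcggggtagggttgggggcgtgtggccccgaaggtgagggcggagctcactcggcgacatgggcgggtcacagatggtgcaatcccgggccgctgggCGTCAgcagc
Atf4, chr15:80254934-80255183, plus strand: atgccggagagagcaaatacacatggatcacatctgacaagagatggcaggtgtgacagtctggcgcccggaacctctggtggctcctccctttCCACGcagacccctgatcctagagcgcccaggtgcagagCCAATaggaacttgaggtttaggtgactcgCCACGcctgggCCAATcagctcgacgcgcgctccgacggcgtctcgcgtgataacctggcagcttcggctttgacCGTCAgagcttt

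A composite element bound by C/EBP and ATF factors, of which ATF4 is one, was searched as TGATGNAA on both strands of the whole window, which runs to base 50 after the start. It matched in 4 of the 10 regulators, against 4.51% of the 27025 genes with a window. In 3 of them, Chac1, Atf3 and Nupr1, the match was the octamer TTGCATCA, which 1.03% of genes hold. Ddit3 had no match in its window, and bases farther upstream were not searched for any gene. The 4 sites are shown in capitals with the bases around them, because they set a regulator that was higher (Trib3) beside 3 that did not pass the test.
Trib3, bases 15 to 22, chr2:152344028-152344057, minus strand: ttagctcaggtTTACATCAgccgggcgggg
Chac1, bases -193 to -186, chr2:119351038-119351067, plus strand: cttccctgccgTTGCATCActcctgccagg
Atf3, bases -110 to -103, chr1:191183425-191183454, minus strand: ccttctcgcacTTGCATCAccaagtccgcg
Nupr1, bases -110 to -103, chr7:126625562-126625591, minus strand: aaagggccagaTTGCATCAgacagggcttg

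The full ERSE, which is CCAAT, then 9 bases, then CCACG, matched exactly in none of the 10 regulators within these windows, and in 0.137% of all genes. It matched in 7 of 13 known ATF6 target genes that had a window. With up to 1 mismatch allowed in the ATF6 box, a search added with the Ddit3 sequence in view, Ddit3 matched at bases -91 to -73 on the opposite strand, where the NF-Y box is the one in capitals above. Since the search was set with that sequence known, the Ddit3 match only describes the site. Ddit3 was the 1 regulator of 10 to match in this way, against 10 of the 13 ATF6 targets and 1.14% of all genes. The ERSE sites of 3 of those genes are given in capitals for comparison; in Derl3 and Creld2 the element lies on the opposite strand. Overlap is part of the search, since every ERSE also holds an NF-Y box and an ATF6 box. ERSE-II, searched as ATTGG, then 1 base, then CCACG, matched in none of the 10 regulators. It matched in 2 of the 13 ATF6 targets, Dnajb11 and Herpud1, and in 0.0444% of all genes. A match describes letters in the window and was not tested for binding.
Hspa5, bases -65 to -47, chr2:34772020-34772048, plus strand: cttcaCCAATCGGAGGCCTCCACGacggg
Derl3, bases -156 to -138, chr10:75893237-75893265, plus strand: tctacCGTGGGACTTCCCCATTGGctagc
Creld2, bases -126 to -108, chr15:88819515-88819543, plus strand: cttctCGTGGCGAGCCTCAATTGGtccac

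**Figure D1:**
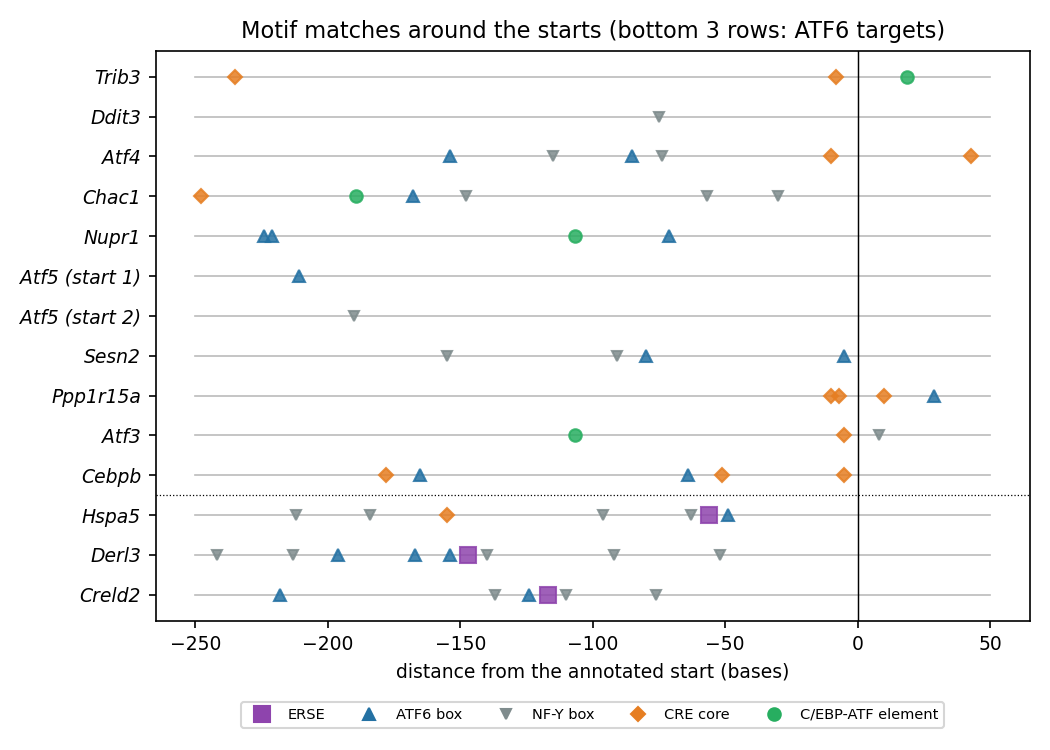
Motif matches by distance in bases from the annotated start (x axis) for the 10 regulators and for 3 ATF6 target genes below the dotted line. The 3 regulators that were higher come first and the others follow, each part in order of fold change. Atf5 has 2 annotated starts. Exact ERSE matches (squares) appear in the ATF6 targets and in no regulator, and C/EBP-ATF elements (circles) appear in Trib3, Chac1, Nupr1 and Atf3.

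Ddit3 and Trib3 stood out, each about 2.5-fold higher in sATF6-KI than in control hippocampus, and Atf4 rose slightly. These were the 3 of 10 regulators past the authors' adjusted p of 0.05 (DESeq2 Wald test with Benjamini-Hochberg adjustment over all genes), all of them higher. Of all genes, 5.34% passed, 3.41% higher and 1.93% lower. The other 7 did not pass; 5 of these had a log2 fold change above 0 and 2 below. The median log2 fold change of the 10 was 0.26, against 0.00 over all genes. The set was chosen with earlier results of these data known, so its share of calls is a description.

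Among the transcription factors, Ddit3 carried the clearest change. It encodes CHOP, a C/EBP family member known for its part in cell death under lasting ER stress, and lies on chromosome 10 from 127290774 to 127296288 (GRCm38, GENCODE M21). Its log2 fold change in the authors' deposited table was 1.33 ± 0.10 (Wald standard error), a 2.52-fold rise with a 95% interval of 2.21 to 2.87 (adjusted p = 1.24e-41). By p-value it ranked 35 among the 17385 genes, and 117 genes had a larger log2 fold change in the authors' deposited table.

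Atf4, the central factor of the pathway on chromosome 15 from 80255184 to 80257541 (GRCm38), rose by a much smaller amount. The authors' deposited table gave it a fold of 1.20 (95% interval 1.09 to 1.32), a log2 fold change of 0.26 ± 0.07 (DESeq2 adjusted p = 0.0103). Its interval and that of Ddit3 do not overlap, although a test of the difference between these genes was not made. Atf5, a related factor that is likewise controlled at translation, had a nearly equal value of 0.27 ± 0.09 on the log2 scale according to the authors' deposited table and did not pass (adjusted p = 0.0750).

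The remaining transcription factors did not pass the test. Nupr1, a small chromatin-associated stress protein, was at 0.33 ± 0.19 on the log2 scale by the authors' deposited table, with adjusted p = 0.397. Cebpb, which encodes a dimer partner of CHOP, was at -0.13 ± 0.13 in the authors' deposited table, with adjusted p = 0.720. Atf3, a stress-induced repressor and activator downstream of ATF4, was at -0.08 ± 0.37 in the authors' deposited table, with adjusted p = 0.962. The 3 thus lay within about 2 standard errors of no change, in both directions.

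Among feedback and effector genes, Trib3 was the 1 of 4 that passed. It encodes a pseudokinase that CHOP and ATF4 induce and that restrains ATF4 and AKT signalling, and lies on chromosome 2 from 152337422 to 152344032 (GRCm38). Its log2 fold change in the authors' deposited table was 1.36 ± 0.33, a 2.57-fold rise with a wide 95% interval of 1.63 to 4.05 (adjusted p = 0.00206). Its fold is close to that of Ddit3, but its error is more than 3 times as large, and its baseMean, the authors' mean normalized value over all libraries, was 38.2 against 881 for Ddit3. The form of the deposited error is that of a shrunken fold change, and on that scale Trib3 would be 1.35-fold and Ddit3 2.19-fold higher.

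Chac1, which degrades glutathione and is a target of ATF4 with CHOP, was at 0.40 ± 0.14 on the log2 scale according to the authors' deposited table and fell short of the threshold (adjusted p = 0.0590). Sesn2, a stress-induced inhibitor of mTORC1, was at 0.05 ± 0.09 in the authors' deposited table, with adjusted p = 0.873. Ppp1r15a, known as GADD34, the inducible subunit that returns eIF2α to its unphosphorylated form, was at 0.03 ± 0.10 in the authors' deposited table, with adjusted p = 0.941. For Sesn2 the 95% interval reached from 0.914-fold to 1.18-fold and for Ppp1r15a from 0.889-fold to 1.17-fold, so rises of the size seen in Ddit3 lie outside both.

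**Figure D2:**
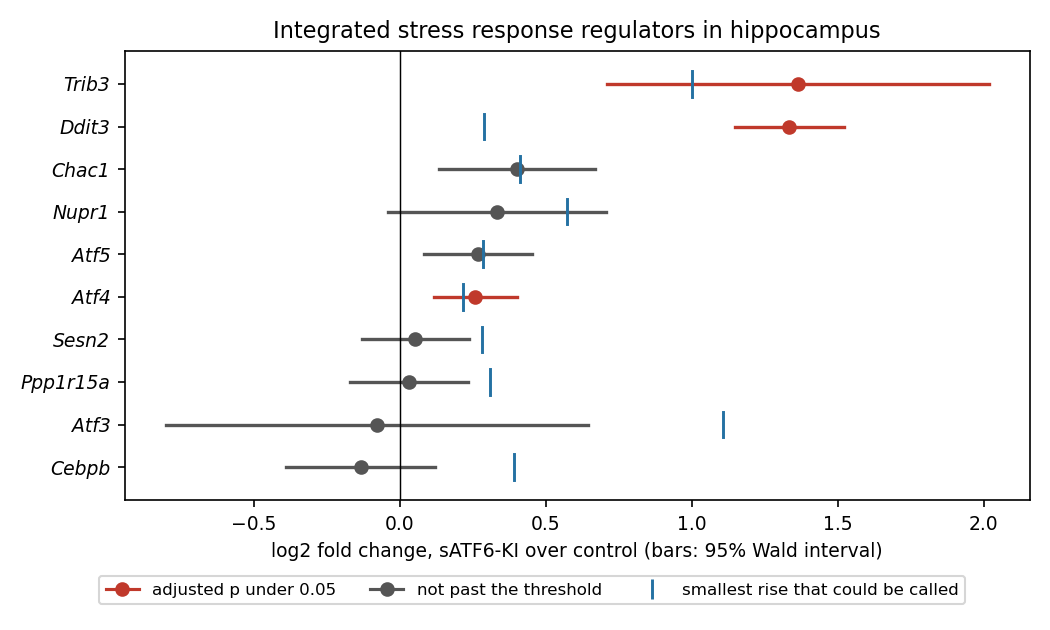
Log2 fold change of each regulator, sATF6-KI over control (x axis), with its 95% Wald interval as a bar; the blue mark is the smallest rise that could have been called at that gene's error. Trib3 and Ddit3 lie at 1.36 and 1.33, Atf4 at 0.26 passes because its error is small, and Atf3 and Trib3 have the widest intervals.

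How small a change could be called differed between regulators, since the called gene closest to the threshold had an absolute Wald statistic of 3.00. At the error of each gene, this corresponds to a rise of 1.16-fold for Atf4 and 1.22-fold for Ddit3. Atf5 needed 1.22-fold, Sesn2 1.22-fold, Ppp1r15a 1.24-fold, Cebpb 1.31-fold, Chac1 1.33-fold and Nupr1 1.49-fold. For Trib3 and Atf3 only changes of at least 2.00-fold and 2.15-fold would have been called. A rise of 1.5-fold lies within the 95% intervals of 3 of the 7 regulators without a call, namely Chac1 (1.10 to 1.59), Nupr1 (0.973 to 1.63) and Atf3 (0.574 to 1.56). At the error of each gene, an estimated rise of 1.5-fold would have been called for Chac1 and Nupr1 but not for Atf3. These thresholds apply to the estimated fold, so a true rise close to one of them, as 1.5-fold is for Nupr1, could be missed.

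The regulators also differed widely in level. All had a baseMean of at least 10, from 31.0 for Atf3 to 4018 for Atf4 in the authors' deposited table. Divided by exon length in GENCODE M21, the mean level was 1704 per kb for Atf4, 656 for Atf5, 515 for Ddit3 and 365 for Cebpb. Sesn2 followed with 197 per kb, Ppp1r15a with 169 and Chac1 with 158. Nupr1 had 53.7 per kb, Trib3 18.0 and Atf3 14.4. Trib3 was thus among the lowest expressed of the 10, and its fold change rests on few normalized reads. The exon lengths come from an annotation that may differ from that of the authors, and the spread of these levels over samples is not analysed here.

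**Figure D3:**
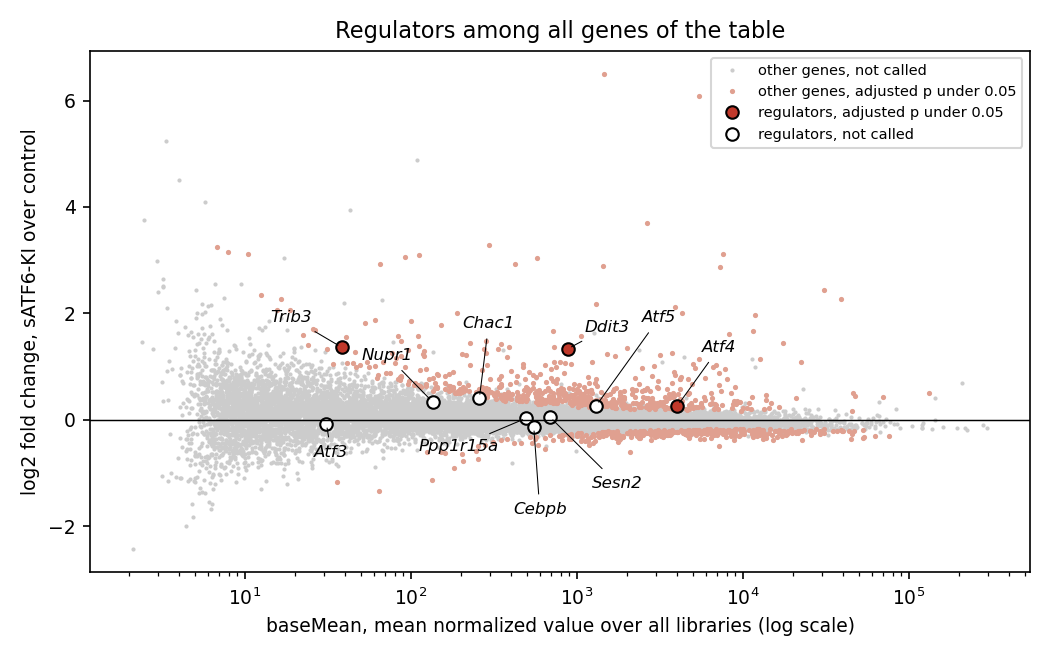
Log2 fold change, sATF6-KI over control (y axis), against baseMean on a log scale (x axis) for all 17385 genes, with the 10 regulators outlined in black. Ddit3 and Trib3 lie well above 0 at baseMeans of 881 and 38.2, while the other 8 lie between -0.13 and 0.40.

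Some regulators share exonic bases with other annotated genes, and although the library kit keeps strand, per the labels' protocols, the sources used here do not give the strand setting of the counting. Ddit3 shares 68 exonic bases with Mars on the opposite strand, and the authors' deposited table put Mars at -0.05 ± 0.07 (log2). It also shares 105 bases with a second GENCODE entry of the same name and strand, and 13 with Gm4189, a noncoding gene that starts beside it on the opposite strand. The authors' deposited table gave Gm4189, picked with its value in view, a fold of 2.09 (95% interval 1.35 to 3.22, DESeq2 adjusted p = 0.0234). Whether reads of Ddit3 were counted there was not tested. On the opposite strand, Cebpb shares 312 of 1504 exonic bases with Tmem189. Atf5 shares 82 of 1993 with Nup62 and with Il4i1, and Ppp1r15a shares 12 of 2937 with Tulp2. The values of these 3 regulators carry the same kind of uncertainty, over overlaps of unlike size. Trib3, Atf4, Chac1, Atf3, Sesn2 and Nupr1 had no such overlap.

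Upstream of the regulators, 1 of the 4 eIF2α kinases rose and none fell, where 3.41% of all genes were higher and 1.93% lower. Eif2ak3, which encodes PERK, was 1.44-fold higher by the authors' deposited table (log2 0.53 ± 0.08, adjusted p = 5.73e-10); 485 of its exonic bases overlap a gene model on the opposite strand. Eif2ak2, the kinase PKR that responds to double-stranded RNA, was at 0.26 ± 0.12 in the authors' deposited table (adjusted p = 0.257). Eif2ak4, the amino acid sensor GCN2, was at 0.04 ± 0.08 and Eif2ak1, the heme-regulated kinase HRI, at -0.03 ± 0.06 in the authors' deposited table. The difference between the kinases was not tested.

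For eIF2 and its exchange factor eIF2B, the DESeq2 comparison called none of 8 genes, where 3.41% of all genes were higher and 1.93% lower. With an unadjusted p under 0.05, 1 of them was lower, against 7.59% of all genes. That gene was Eif2s3x, a subunit of eIF2, at -0.36 ± 0.15 on the log2 scale according to the authors' deposited table. The values of all 8 lay between -0.36 and -0.07. Among 7 genes of eIF2α dephosphorylation and kinase inhibition, 1 rose and none fell, where 3.41% of all genes were higher and 1.93% lower. Dnajc3, an ER co-chaperone also known as an inhibitor of PERK and itself an ATF6 target, was 2.07-fold higher by the authors' deposited table (adjusted p = 4.16e-47). With an unadjusted p under 0.05, 1 of the 7 was higher and 2 were lower, against 8.2% and 7.59% of all genes. The 2 lower were Ppp1cb and Ppp1ca, catalytic subunits of protein phosphatase 1, at -0.17 ± 0.07 and -0.15 ± 0.07 in the authors' deposited table. Ppp1r15b, the constitutive counterpart of Ppp1r15a, was at -0.04 ± 0.06 in the authors' deposited table.

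Dimer partners and paralogs of the regulators held no call. Of 17 rows for 16 genes, none passed in the DESeq2 comparison, where 3.41% of all genes were higher and 1.93% lower. With an unadjusted p under 0.05, none was higher and 3 were lower, against 8.2% and 7.59% of all genes. Those were Cebpd, a C/EBP factor, at -0.32 ± 0.13 on the log2 scale according to the authors' deposited table, Jdp2, a repressor of AP-1, at -0.19 ± 0.09, and Trib2 at -0.16 ± 0.08. Trib1 was at -0.11 ± 0.11 in the authors' deposited table, and neither of these relatives of Trib3 passed. Chac2, Sesn1 and Sesn3 were at -0.06 ± 0.12, -0.03 ± 0.09 and 0.18 ± 0.09 in the authors' deposited table, and Cebpg, a partner of ATF4, was at 0.14 ± 0.07.

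Among known target genes of ATF4 or CHOP other than the regulators, 4 of 31 measured rose and 1 fell, against 3.41% and 1.93% of all genes, with a median log2 fold change of 0.10. Herpud1, a part of ER-associated degradation that ATF6 also induces, was 4.02-fold higher by the authors' deposited table (adjusted p = 7.18e-145). Pycr1, a mitochondrial enzyme of proline synthesis, was 2.80-fold higher according to the authors' deposited table (log2 1.48 ± 0.24, adjusted p = 6.18e-08), at a baseMean of 86.7. Wars, the tryptophanyl-tRNA synthetase, was 1.24-fold and Bcl2l11, the gene for the cell death protein BIM, 1.33-fold higher by the authors' deposited table. Gpt2, a mitochondrial alanine aminotransferase, was 1.19-fold lower according to the authors' deposited table (adjusted p = 0.0270).

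Many classical targets did not pass. Asns, asparagine synthetase, was at -0.12 ± 0.07 and Ddit4, an inhibitor of mTORC1, at 0.04 ± 0.11 on the log2 scale by the authors' deposited table. Psat1 and Phgdh, enzymes of serine synthesis, were at 0.18 ± 0.07 and 0.17 ± 0.10 in the authors' deposited table, with adjusted p = 0.0847 and 0.440. Slc7a11, the cystine transporter, was at 0.22 ± 0.21 in the authors' deposited table. Stc2 and Gars, which with Psat1 had the smallest p of the targets without a call, were at 0.41 ± 0.15 and -0.14 ± 0.06 (DESeq2 adjusted p = 0.104 and 0.248). Of genes linked to CHOP, Ero1l, an ER oxidase, was at -0.07 ± 0.08, and the cell death genes Bbc3 and Tnfrsf10b were at 0.26 ± 0.13 and 0.47 ± 0.42 in the authors' deposited table. In all, 8 of the 31 were higher at an unadjusted p under 0.05 and 2 lower, where 8.2% and 7.59% of all genes were.

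**Figure D4:**
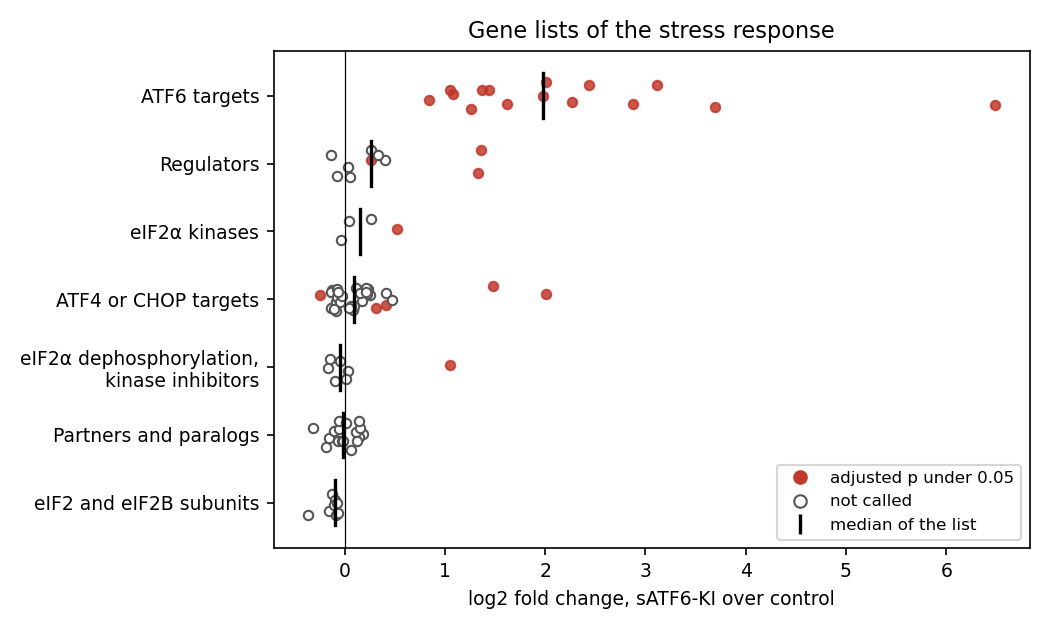
Log2 fold change, sATF6-KI over control (x axis), of every measured gene in 7 lists; filled points passed an adjusted p of 0.05 and vertical bars are list medians. All 15 ATF6 targets are filled, against 3 of 10 regulators, and the medians are 1.98 and 0.26. The lists were chosen with earlier results of these data known.

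Against these, all 15 ATF6 target genes in the list were higher in the authors' deposited table, where 3.41% of all genes were, with a median log2 fold change of 1.98. That list too was chosen with earlier results of these data known, so its counts are a description. Herpud1 and Dnajc3 belong to it and also to lists above. The lowest value of the 15, 0.84 for Xbp1, exceeded the values of 8 regulators, and the values of Ddit3 and Trib3 fell inside the range of the 15. Creld2, an ER protein of that list with an ERSE in its window, stood 2 places above Trib3 among the 907 called protein-coding genes, at 1.37 ± 0.10 on the log2 scale according to the authors' deposited table, with Cfp, the complement factor properdin, between them at 1.37 ± 0.15. Below Trib3 and above Ddit3 lay Fam174b at 1.35 ± 0.09 and Igfn1 at 1.34 ± 0.35 in the authors' deposited table. Next below Ddit3 were Ticam1, an adaptor of Toll-like receptors, at 1.33 ± 0.12 and Chrnb4, a nicotinic receptor subunit, at 1.33 ± 0.38, again by the authors' deposited table. Nearness in this order is no sign of shared control.

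Genes of the transgene and markers of cell types were read in the same comparison. The authors' deposited table gave Atf6 a fold of 1.43 and Esr1, the source of the hormone-binding part MER, a fold of 68.0, both higher in sATF6-KI hippocampus. Whether transgene reads were counted there was not tested. Markers of glutamatergic forebrain neurons were all measured, with a lowest baseMean of 327, and 2 of 12 fell (median log2 fold change -0.13). Choroid plexus markers moved the other way, with 11 of 12 higher and a median of 0.47. Endothelial and mural markers had 1 of 9 higher, and microglia and astrocyte markers had 1 of 10 and 1 of 9 lower, where 3.41% of all genes were higher and 1.93% lower. Of 9 oligodendrocyte markers the DESeq2 comparison called none. With an unadjusted p under 0.05, 6 of the 12 neuron markers and 4 of the 9 astrocyte markers were lower. So were 4 of the 9 oligodendrocyte and 1 of the 10 microglia markers, against 7.59% of all genes, and no marker of these 4 lists was higher. At that threshold 4 of the 9 endothelial and mural markers and all 12 choroid plexus markers were higher, against 8.2% of all genes. No listed marker was at 0, and their summed levels per group were not analysed here. The part of these markers in the values of the regulators was not tested.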

How the data were processed

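Messenger RNA was measured by sequencing in 3 sATF6-KI and 3 control hippocampus samples. Per the submitters' processing notes, the authors used Trim Galore, cutadapt, STAR, HTSeq and DESeq2; the sources used here give no version, genome build, annotation or strand setting. Per the file headers, the deposited table gives a log2 fold change (sATF6-KI over control), a Wald statistic, which is a score with no fixed range, and a p-value with its false discovery rate adjusted form. The deposited baseMean column is a signal, namely the authors' normalized expression averaged over the libraries. The 6 columns of values per library have names that match no sample label and were not used, so depth per sample is unknown here. The planned edgeR test was therefore not run, and the deposited DESeq2 comparison is reported instead.

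Recomputing the Benjamini-Hochberg adjustment over the 17385 genes gave the deposited adjusted p to within 3.89e-15. The deposited error, a score here, did not go with the Wald statistic. For 98.4% of genes it followed from the quotient of log2 fold change and Wald statistic and from 1 prior precision, within 2% of a median of 19.7. The standard error used is that quotient, with 95% Wald intervals. The Wald statistic times the deposited error gives the shrunken fold change.

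Coordinates and exon lengths come from GENCODE M21 (GRCm38), matched by gene ID for 17166 of 17385 genes. Promoters come from RefSeq (GRCm38.p6), where all 10 regulators matched by symbol; exact matches were counted on both strands from 250 bases before to 50 after the start. Tables were handled with pandas 2.3.3 and numpy 2.4.6 in Python 3.11.15, with statistics from scipy 1.17.1 and plots from matplotlib 3.10.9, and the adjustment and motif search were tested on simulated data. The regulators and all gene lists were chosen with earlier results of these data known. Named were all regulators, each called gene of a list and up to 3 others with the smallest p, and the 2 genes next to Ddit3 and Trib3 on each side. By that rule Eif2b1, Eif2b5 and Impact were due as well, and their values are not given. Beside the genes of the rule, targets and relatives of the regulators were named after their values were seen. Of the ATF6 target and marker lists few genes are named.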

Additional observations from a re-analysis of the deposited data

How the results depend on the processing

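Of the 3 regulators called higher, 1 was left by Bonferroni (Ddit3), and 5 were called at an adjusted p under 0.1, where Chac1 and Atf5 were added. An adjusted p under 0.01 or a fold change of at least 1.5 left Ddit3 and Trib3. Over all genes, the 928 calls were 514 at 0.01, 217 at a fold change of at least 1.5 and 268 by Bonferroni. Among them, 592 genes were higher as reported, against 379, 206 and 234 with those thresholds. Lower genes numbered 336 as reported, against 135, 11 and 34, and 529 at an adjusted p under 0.1. These settings tighten or loosen the call by construction. Adjustment over genes with a baseMean of at least 10 or over protein-coding genes alone changed no call among the 10 regulators. That minimum removed no gene of any list, so it gives no check of the list counts. The shrunken fold changes, chosen after seeing the data, changed no direction among the 10 regulators, of which Trib3 moved most, to 1.35-fold, against 2.57-fold as deposited. No paired analysis was possible because the columns of values per library carry no replicate number of the labels and were not used. For the same reason other normalizations and filters, DESeq2 and limma fits, pseudocounts and fits without single replicates were not run. Trib3 and Atf3, the lowest in level of the 10, had the largest errors, and depth and spread between samples cannot be told apart here.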

Other observations

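The full ERSE was found in the windows of 37 genes, of which 20 were in the authors' deposited table and 12 of these 20 were higher (DESeq2 adjusted p under 0.05), where 3.41% of all genes were, and none lower. Of the 20, 7 belong to the ATF6 target list. Among the other 13, 5 were higher: Zfp57, a zinc finger protein known for imprinting, was 3.18-fold higher according to the authors' deposited table, Syvn1, the ubiquitin ligase HRD1, 1.47-fold, Hnrnpa3 1.43-fold, Pan2 1.38-fold and the ER lectin Canx 1.33-fold. Genes with the C/EBP-ATF octamer TTGCATCA gave another picture. Of 83 in the authors' deposited table, 4 were higher (4.82%) and 2 lower, with a median log2 fold change of 0.05, so their share of higher genes was near that of all genes. These genes were looked at after the promoters of the regulators had been searched, and no test was made of either share.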
